A study of Mus musculus with 24 samples.

Results

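The adult myosin heavy chain genes Myh4, Myh1, Myh2 and Myh7 were measured in mouse gastrocnemius, a mixed calf muscle. They were chosen by symbol, with earlier results of these data known, and 4 of the 55401 genes in the deposited count table belong to the set. Poly-A RNA came from male C57BL6 mice in 4 groups of 3 mice each. The procedure was done at an age of 5 weeks in young mice and of 11 weeks in adult mice. Burned mice received a scald over 25% of the body surface with fluid resuscitation, and muscle was taken 24 h later. Sham mice received the anaesthetic and the analgesic but neither scald nor resuscitation, so the effects of burn and of fluid cannot be told apart. Small RNA of the same muscle was also sequenced, with 3 libraries per group.

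Myosin heavy chain is the motor protein of the thick filament, and the isoform a muscle fibre makes sets much of its speed of contraction. Myh7 encodes the slow isoform of type I fibres, Myh2 the isoform of fast oxidative type IIA fibres, Myh1 that of type IIX fibres and Myh4 that of the fastest, glycolytic type IIB fibres. Many fibres make a single isoform, and the mix of isoforms in whole muscle is widely used as a readout of fibre type composition. In whole muscle, fewer fibres of a type and less RNA per fibre cannot be told apart.

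The 3 fast genes lie side by side on the plus strand of chromosome 11 (GRCm38). Myh2 (ENSMUSG00000033196.17) spans chr11:67171027-67197517, Myh1 (ENSMUSG00000056328.14) spans chr11:67200052-67224575 and Myh4 (ENSMUSG00000057003.12) spans chr11:67238029-67260446. They sit between the embryonic gene Myh3 and the perinatal gene Myh8. Myh7 (ENSMUSG00000053093.16) lies apart from them, on the minus strand of chromosome 14 at chr14:54970684-54994626, beside the cardiac gene Myh6.

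**Figure D1:**
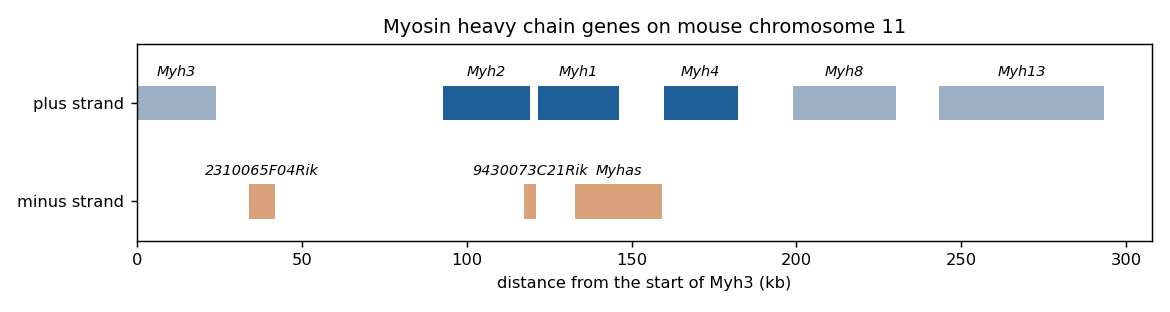
Map of the myosin heavy chain genes of mouse chromosome 11, with the distance from the start of Myh3 in kb on the horizontal axis and the strand on the vertical axis. Dark bars are Myh2, Myh1 and Myh4, grey bars other myosin heavy chains and orange bars long noncoding RNAs; Myhas overlaps Myh1 and 9430073C21Rik overlaps Myh2.

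The stretches before the RefSeq start sites (GRCm38.p6) are shown because the 3 fast genes share a 20-base word there. Up to 250 bases before each RefSeq start are printed, leaving out, for Myh1 and Myh7, bases that lie inside the Gencode transcript, and capitals mark the shared word.

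Myh2, chr11:67170777-67171026, plus strand: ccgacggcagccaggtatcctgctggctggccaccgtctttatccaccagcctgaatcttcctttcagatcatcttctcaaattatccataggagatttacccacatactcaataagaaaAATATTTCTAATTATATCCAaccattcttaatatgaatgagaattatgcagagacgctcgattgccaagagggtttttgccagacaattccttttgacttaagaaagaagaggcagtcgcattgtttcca
Myh1, chr11:67199852-67200051, plus strand: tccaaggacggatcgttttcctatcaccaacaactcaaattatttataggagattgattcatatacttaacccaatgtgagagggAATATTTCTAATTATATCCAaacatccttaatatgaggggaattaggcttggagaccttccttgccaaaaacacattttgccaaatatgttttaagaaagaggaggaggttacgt
Myh4, chr11:67237562-67237811, plus strand: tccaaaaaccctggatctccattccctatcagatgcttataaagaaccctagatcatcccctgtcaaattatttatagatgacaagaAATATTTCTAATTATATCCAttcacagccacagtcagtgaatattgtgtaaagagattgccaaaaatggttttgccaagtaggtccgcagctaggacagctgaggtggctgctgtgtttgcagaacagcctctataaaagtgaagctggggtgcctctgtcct
Myh7, chr14:54994627-54994799, minus strand: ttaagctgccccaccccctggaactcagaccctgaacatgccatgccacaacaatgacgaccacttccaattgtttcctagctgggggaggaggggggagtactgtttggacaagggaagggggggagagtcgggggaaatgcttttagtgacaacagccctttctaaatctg

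The word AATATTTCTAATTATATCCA began 130 bases before the start of Myh2, 165 bases before that of Myh1 and 163 bases before that of Myh4, counted from the RefSeq starts. The RefSeq start of Myh1 lies inside the Gencode transcript, so the stretch printed for it ends before that start. Searched on both strands, it occurred in 3 of the 32851 promoter windows of 250 bases (0.00913%), which are these 3, and not in that of Myh7. The sequence TATAAA was found before Myh1 and Myh4 and in 12.4% of all windows. A MEF2 motif was found before Myh1 and Myh4 and in 2.92% of windows, and a CArG motif before Myh4 and in 1.47%. E-boxes (CANNTG) were found before Myh4 and Myh7 and in 66.2% of windows. These matches are letters in a window, and binding was not measured.

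The mRNA libraries held 4392605 to 5688512 counts. The study's RNA quality report gave no RNA integrity number for any sample. In it the ratio of large to small ribosomal RNA was higher in adult sham replicates 1 and 3 than in any other sample. The part of RNA quality in the results was not tested. Young burn replicate 2 stood apart: its mean correlation with the other libraries of its group was 0.941, against 0.960 to 0.982 for the other 11 libraries. Hsp90aa1, a chaperone of myosin folding, was at 421 CPM (reads of the gene scaled to a fixed library total) in it and at 66.7 to 103 CPM in the others. The study left 1 young burn mouse out of its heat map of burn responses. Tests here were run on 11 libraries without replicate 2, and the result with all 12 is given beside each. Summed markers of muscle (4 genes) were at 30609 to 46984 CPM in every library. Of 4 keratinocyte markers, Krt1, Krt14 and Krt5 had no count in any library.

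Markers of other cell types were summed in each of the 12 libraries. Summed neutrophil markers (5 genes, of which Ly6g had no count in any library) were at 7.44 to 7.93 CPM in adult sham and 15.2 to 20.5 CPM in adult burn, and at 4.05 to 6.09 CPM in young sham and 13.1 to 37.4 CPM in young burn. Summed macrophage markers (7 genes) were at 276 to 333 CPM in adult sham, 337 to 442 in adult burn, 256 to 359 in young sham and 466 to 790 in young burn. Both sums were higher in burn than in sham at each age without overlap. Summed tendon markers (6 genes) were at 309 to 335 CPM in young sham and 79.6 to 169 CPM in young burn, without overlap, and at 106 to 247 CPM in adult sham and 97.8 to 144 CPM in adult burn, which overlapped. Tendon markers were also higher in young sham than in adult sham without overlap. So were summed Schwann cell markers (6 genes), at 186 to 329 against 143 to 164 CPM. The Schwann cell sums overlapped between burn and sham at each age. Summed red blood cell markers (5 genes) were at 294 to 491 CPM in adult sham and 260 to 277 CPM in adult burn. These ranges did not overlap, while those of the young groups did. The part of these cell types in the results for the myosins was not tested.

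All levels are CPM scaled by TMM, a normalization between libraries. Per kb of exon, Myh4 exceeded Myh1, Myh1 exceeded Myh2 and Myh2 exceeded Myh7 in 12 of 12 libraries. In adult sham muscle Myh4 was at 4571 ± 120 CPM per kb (SD, n = 3), Myh1 at 151 ± 9.78, Myh2 at 109 ± 6.37 and Myh7 at 8.45 ± 5.75. The ranges of Myh1 and Myh2 per kb did not overlap within either adult group but overlapped within both young groups. Together the 4 genes took 2.29% to 4.01% of all counts in a library.

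Myh4 stood at 27305, 28302 and 26899 CPM in adult sham and at 22684, 33361 and 30145 CPM in adult burn. In young sham it stood at 31426, 27339 and 47788 CPM, and in young burn at 24897, 18486 and 22643 CPM. Young sham replicate 3 was the highest of all, and every young burn library was below every young sham library. The other group ranges of Myh4 that were compared overlapped.

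Myh1 stood at 1032, 919 and 930 CPM in adult sham and at 490, 353 and 467 CPM in adult burn. In young sham it stood at 785, 563 and 633 CPM, and in young burn at 950, 570 and 1013 CPM. The adult burn libraries were the lowest of the 12, and young burn replicate 2 was within the range of young sham.

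Myh2 stood at 774, 734 and 825 CPM in adult sham and at 358, 242 and 205 CPM in adult burn. In young sham it stood at 661, 492 and 343 CPM, and in young burn at 751, 281 and 777 CPM. Adult sham lay above adult burn and above young sham without overlap. Young burn replicate 2 lay within the adult burn range, while the other 2 young burn libraries lay close to adult sham.

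Myh7 was the scarcest, with 68 to 540 counts per library. It stood at 18.0, 85.9 and 115 CPM in adult sham and at 33.5, 30.4 and 31.2 CPM in adult burn. In young sham it stood at 38.5, 58.7 and 35.4 CPM, and in young burn at 58.2, 12.4 and 43.7 CPM. Adult sham replicate 1 and young burn replicate 2 were the 2 lowest of all libraries, and with all 12 libraries no pair of groups compared was free of overlap.

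**Figure D2:**
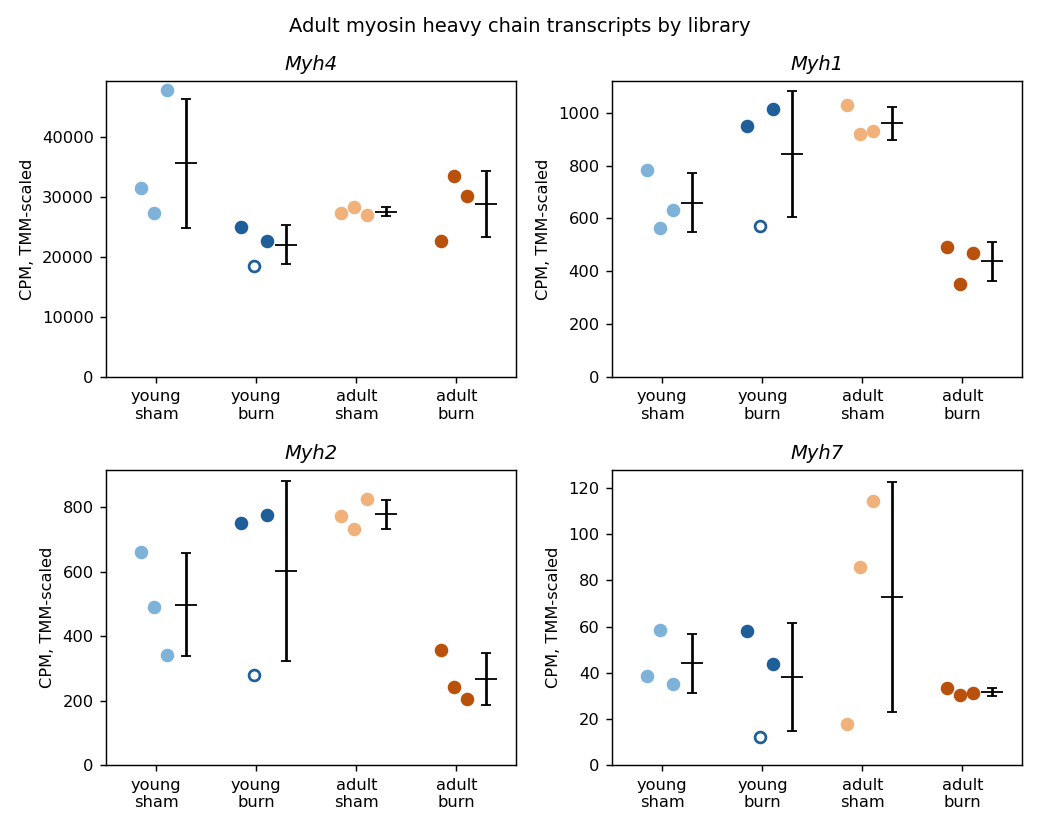
Levels of Myh4, Myh1, Myh2 and Myh7 in CPM (vertical axes from 0) in 4 groups of 3 libraries; points are libraries, bars the mean and SD, and the open point is young burn replicate 2. For Myh1 and Myh2 all 3 adult burn points lie below all 3 adult sham points, at 353 to 490 against 919 to 1032 CPM for Myh1.

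Expressed as shares of the summed CPM of the 4 genes, Myh4 made up 92.5% to 98.2% of every library. Its share was 93.8% ± 0.361 (SD, n = 3) in adult sham, 97.4% ± 0.995 in adult burn, 96.5% ± 1.27 in young sham and 93.8% ± 1.56 in young burn. The other 3 genes together therefore made up 6.18% ± 0.361 in adult sham and 2.62% ± 0.995 in adult burn. They made up 3.50% ± 1.27 in young sham and 6.18% ± 1.56 in young burn, or 7.05% ± 0.632 (n = 2) without replicate 2. A share can move because its own gene or another changes, and no test was made on shares.

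The share of Myh1 was 3.54%, 3.06% and 3.23% in adult sham and 2.08%, 1.04% and 1.52% in adult burn. It was 2.39%, 1.98% and 1.30% in young sham and 3.56%, 2.95% and 4.14% in young burn. Burned mice lay below sham mice among adults and above them among young mice, without overlap in either age and with all 12 libraries.

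The share of Myh2 was 2.66%, 2.44% and 2.87% in adult sham and 1.52%, 0.713% and 0.665% in adult burn. It was 2.01%, 1.73% and 0.703% in young sham and 2.82%, 1.45% and 3.17% in young burn. The young groups overlapped only through young burn replicate 2. The share of Myh7 ran from 0.0618% to 0.398%, both in adult sham. Division by exon length brought the mean share of Myh4 in adult sham to 94.4%. It lowered the mean there from 2.66% to 2.25% for Myh2 and from 0.249% to 0.175% for Myh7.

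**Figure D3:**
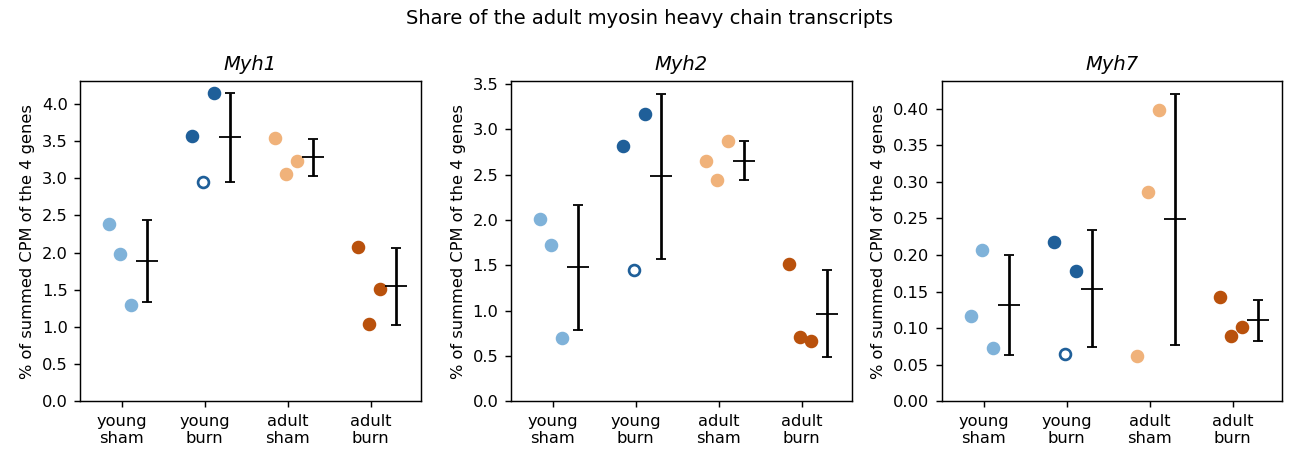
Share of Myh1, Myh2 and Myh7 in the summed CPM of the 4 genes, in percent on vertical axes that start at 0, for 3 libraries in each of 4 groups; bars give the mean and SD and the open point is young burn replicate 2. Myh1 averaged 3.28% in adult sham and 1.54% in adult burn, and stood at 1.89% in young sham and 3.55% in young burn.

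Adult burn was compared with adult sham to ask what the injury did in mature muscle. Genes were tested with edgeR's quasi-likelihood test and counted as called where the p adjusted by Benjamini-Hochberg was below 0.05. Myh1 and Myh2 were both called lower, 2 of the 4 genes, where 0.909% of the 12651 genes tested were called and 0.348% were called lower. Myh1 had a log2 fold change of -1.14 (SE 0.141, adjusted p = 0.00178, edgeR), a fold of 0.454. Myh2 had a log2 fold change of -1.54 (SE 0.211, adjusted p = 0.00327, edgeR), a fold of 0.345. Myh4 was at 0.06 (SE 0.185, adjusted p = 0.926, edgeR) and Myh7 at -1.20 (SE 0.408, adjusted p = 0.195, edgeR).

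The fold changes of Myh1 and Myh2 in adults kept their size with all 12 libraries, -1.14 and -1.53, but neither was called by edgeR (adjusted p = 0.296 and 0.480). In that fit 3 of the 4 genes were under an unadjusted p of 0.05, as were 853 of all 12408 genes. There 1 gene was called (0.00806%). DESeq2 on all 12 libraries called both (0.0887% of genes), with adjusted p = 0.000517 for Myh1 and 0.00530 for Myh2. Young burn replicate 2 is in neither of the groups compared. A fit of the 6 adult libraries alone gave adjusted p = 0.00345 for each (edgeR). Leaving out any of the 11 libraries kept both calls. Myh7 was called when adult sham replicate 1 was left out, with a log2 fold change of -1.66 (SE 0.193, adjusted p = 0.00325, edgeR), and in no other fit that left a library out.

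Young burn was compared with young sham to ask the same of growing muscle. None of the 4 genes was called with 11 libraries by edgeR, where 0.664% of genes were. Without the adjustment 3 of the 4 had p under 0.05 in edgeR, as did 2026 of all 12651 genes. DESeq2 on the same libraries called 1 (1.52% of genes). Myh1 had a log2 fold change of 0.58 (SE 0.154, adjusted p = 0.0894, edgeR; adjusted p = 0.0278, DESeq2). Myh2 was at 0.63 (SE 0.228, adjusted p = 0.195, edgeR) and Myh4 at -0.57 (SE 0.210, adjusted p = 0.202, edgeR). Myh7 was at 0.21 (SE 0.454) and at -0.22 with all 12 libraries.

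Over 12 libraries the young values were 0.35 for Myh1, 0.27 for Myh2 and -0.69 for Myh4, none called by edgeR, where 0.0645% of genes were. There 1 of the 4 had an unadjusted p under 0.05, as did 2519 of all 12408 genes. DESeq2 called Myh4 (adjusted p = 0.0366, where 3.48% of genes were called). Leaving out young sham replicate 1 from the 11 brought Myh1 to 0.73 (adjusted p = 0.0323, edgeR), its only call among fits that left a library out. Over those fits Myh1 ran from 0.48 to 0.73. Myh4 ran from -0.72 to -0.31 and was never called in them.

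The interaction term, the burn difference in young mice minus that in adult mice, asked whether the response depended on age. Myh1 and Myh2 were called, 2 of the 12 genes called among all tested (0.0949%, or 0.079% in the positive direction). The term was 1.72 for Myh1 (SE 0.208, adjusted p = 0.00641, edgeR) and 2.16 for Myh2 (SE 0.309, adjusted p = 0.0127, edgeR). It was 1.41 for Myh7 (SE 0.608, adjusted p = 0.420, edgeR) and -0.63 for Myh4 (SE 0.279, adjusted p = 0.431, edgeR). Only 2 young burn libraries stand behind these values.

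The interaction term over 12 libraries was 1.49 for Myh1 and 1.81 for Myh2, each at adjusted p = 0.683 in edgeR, and no gene was called (0%). Before adjustment 893 genes had p below 0.05, 3 of the 4 myosins among them. DESeq2 on all 12 called Myh1 (adjusted p = 0.0123, where 0.00806% of genes were called) and not Myh2 (0.298). Among the 11 libraries, the call of Myh2 was lost without adult burn replicate 2 (adjusted p = 0.0583), young burn replicate 1 (0.110) or young burn replicate 3 (0.0523), all by edgeR. Without adult sham replicate 1, Myh7 was called at 1.87 (adjusted p = 0.0262, edgeR), and in no other fit that left a library out.

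Young burn against adult burn set the burned mice of both ages side by side. Myh1 was higher in young burn by 1.17 on the log2 scale (SE 0.153, adjusted p = 0.000284, edgeR), a fold of 2.25. Myh2 was higher by 1.51 (SE 0.228, adjusted p = 0.000695, edgeR), a fold of 2.85. These were 2 of the 4 genes, where 20.7% of all genes were called and 11.2% were called higher. Both calls held with all 12 libraries, at 0.95 (adjusted p = 0.0135, edgeR) and 1.17 (adjusted p = 0.0397, edgeR), where 10.8% of genes were called. Myh4 was at -0.27 (adjusted p = 0.374, edgeR) and Myh7 at 0.69 (adjusted p = 0.290, edgeR). Myh7 was called without adult sham replicate 1 (adjusted p = 0.0275, edgeR), and in no other fit that left a library out. That library is in neither of the groups compared. Leaving aside the fit with no filter on low counts, Myh7 was called in 2 of 20 alternative fits. The lowest adjusted p among these was 0.00487 (edgeR), in a fit with no library left out for the purpose.

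Young sham against adult sham gave the difference with age in unburned muscle. Myh1 was lower in young sham by a log2 fold change of -0.55 (SE 0.139, adjusted p = 0.0198, edgeR), where 11.8% of genes were called and 6.49% were called lower. Myh2 was at -0.65 (SE 0.207, adjusted p = 0.0541, edgeR), Myh4 at 0.36 (SE 0.185, adjusted p = 0.224, edgeR) and Myh7 at -0.72 (SE 0.404, adjusted p = 0.267, edgeR). With all 12 libraries none of the 4 was called by edgeR (3.76% of genes were) or DESeq2 (5.38%). In edgeR 1 of the 4 had an unadjusted p under 0.05, as did 2505 of all 12408 genes. Myh1 then had adjusted p = 0.157 (edgeR). The call of Myh1 was also lost without adult sham replicate 1 (adjusted p = 0.0762), young sham replicate 2 (0.0786) or young sham replicate 3 (0.0775). Myh2 was called in 3 of the 11 fits that left a library out, with a lowest adjusted p of 0.00869 (edgeR). Leaving aside the fit with no filter on low counts, 6 of 20 alternative fits called Myh2. Myh7 was called without adult sham replicate 1, at -1.18 (adjusted p = 0.00392, edgeR), and in no other fit that left a library out. The comparisons share sham and burn libraries and are not independent of each other.

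Group ranges that did not overlap were common among all genes. Over 11 libraries they were found for 2 of the 4 myosins between sham groups (31.1% of genes tested) and for 2 between adult burn and adult sham (19.9%). They were found for 3 between young burn and young sham (32.4%) and for 3 between burned groups (53.2%). Over 12 libraries the counts in the same order were 2 (31.3%), 2 (20%), 1 (21.7%) and 1 (30.3%).

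**Figure D4:**
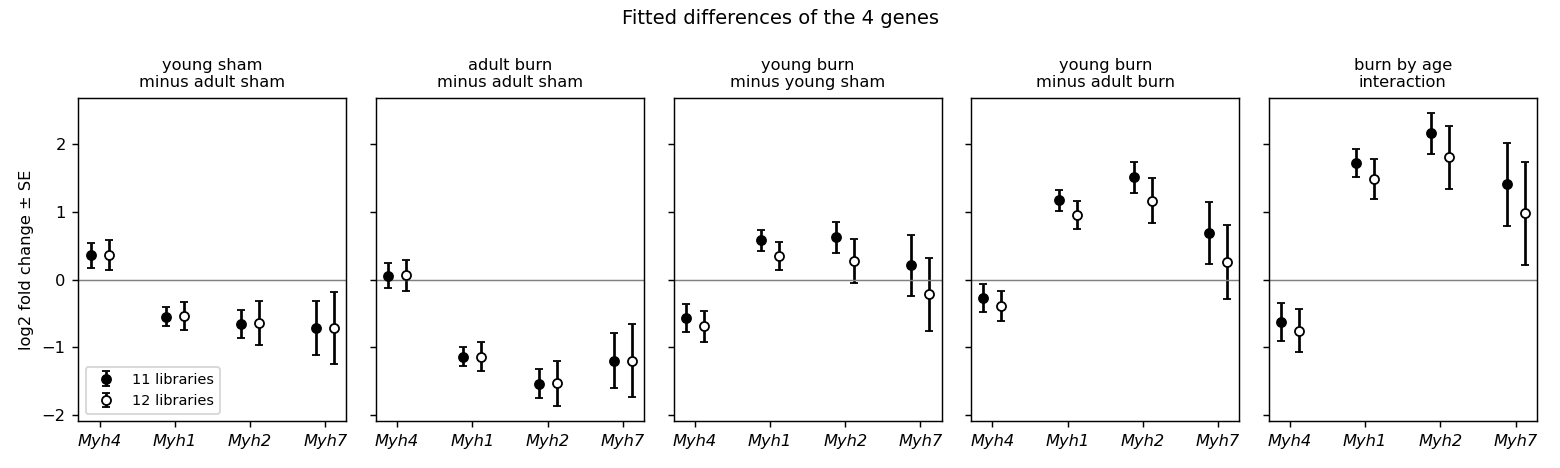
Fitted log2 fold changes of Myh4, Myh1, Myh2 and Myh7 with their SE in 4 comparisons and the interaction term, from edgeR on 11 libraries (filled) and 12 libraries (open). Myh1 and Myh2 lie at -1.14 and -1.54 for adult burn minus adult sham and at 0.58 and 0.63 for young burn minus young sham.

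Sequence is shared between related genes. Of all 75-base words of the longest transcript, 22.0% in Myh1, 18.3% in Myh2, 9.68% in Myh4 and 19.7% in Myh7 also occurred in transcripts of other genes. For sharing with other myosin heavy chains the values were 16.6%, 16.3%, 9.68% and 15.3%. The only myosin heavy chain sharing such words with Myh7 was Myh6. Antisense transcripts overlap Myh1 (Myhas, 515 exonic bases) and Myh2 (9430073C21Rik, 237 exonic bases), and the sources used here do not say whether counting used strand. Myh7 is overlapped by Gm31251 (523 exonic bases), Mhrt (484) and Gm29015 (142), of which Mhrt and Gm29015 had no count in any library and Gm31251 had at most 1. Myhas was at 4.38 to 61.1 CPM, lowest in young burn replicate 2, and 9430073C21Rik at 2.35 to 10.5 CPM. Myhas and 9430073C21Rik were scarcer than their partners in every library, and their part in the results was not tested.

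The genes whose levels followed each myosin most closely were found among 8166 genes by Pearson's r of log2 CPM over 11 libraries. These correlations are descriptions over libraries that share groups and scaling. Myh2 was followed by Mybpc1 (r = 0.974), the slow-type myosin binding protein C, and Myom3 (0.964), an M-band protein, then Ldhb, Smtnl1 and Idh2. Myh1 was followed by Fabp3 (0.926), a fatty acid binding protein, Ak3, Hadh, Smtnl1 and Mybpc1. Myh7 was followed by Atp2a2 (0.953), the slow calcium pump, Tnni1 (0.946) and Tnnc1 (0.937), slow troponins, Tpm3 and Scyl2. Myh4 was followed by Spast, Mrps21, Zeb1, Tnni2 and Edf1, at r of 0.877 to 0.915. Over 12 libraries r fell to 0.229 for Zeb1 and 0.313 for Scyl2. Myh1 and Myh2 correlated with each other at 0.931 over 11 libraries and 0.921 over 12, and Myh4 with Myh2 at -0.44 and -0.17.

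Mybpc1 stood at 562, 534 and 484 CPM in adult sham and at 334, 212 and 204 CPM in adult burn. In young sham it stood at 486, 463 and 291 CPM, and in young burn at 508, 214 and 561 CPM. Like Myh2, it was low in the adult burn libraries and in young burn replicate 2.

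**Figure D5:**
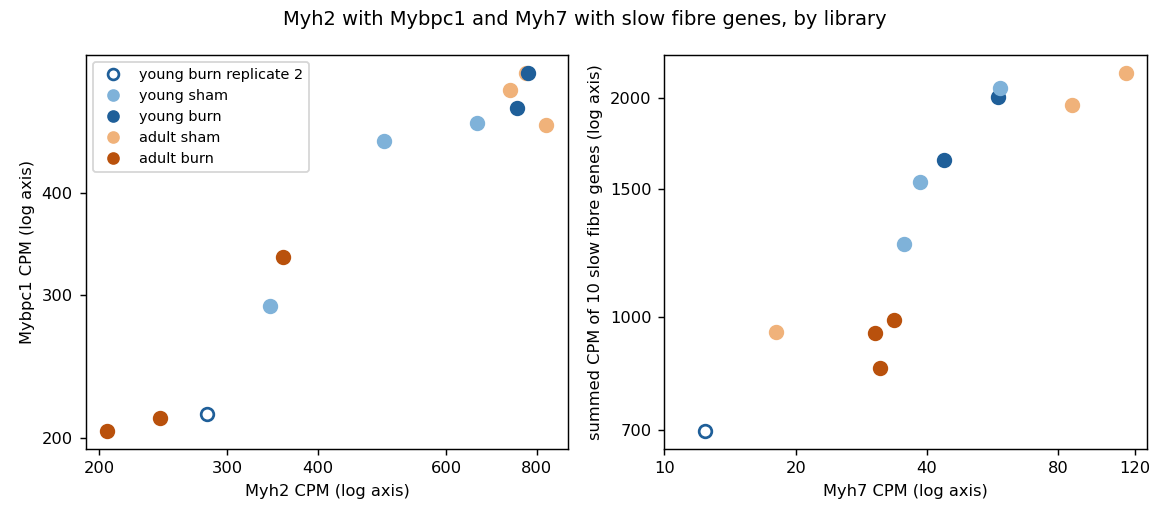
Mybpc1 against Myh2 (left) and the summed CPM of 10 slow fibre genes against Myh7 (right), in CPM on log axes, with 1 point per library coloured by group and young burn replicate 2 open. Libraries low in Myh2 are low in Mybpc1, and adult sham replicate 1 and young burn replicate 2 lie at the low end of Myh7, at 18.0 and 12.4 CPM.

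Other genes of the sarcomere and of fibre type were read from 6 lists with 71 genes, of which 67 were tested. Among adults, burn was followed by 1 call higher and 6 lower. Of all 12651 genes tested, 71 were called higher and 44 lower. Of 10 slow fibre genes, 0 were called higher and 3 lower, with a list median of -0.81 where the median of all tested genes was 0.00. The 3 were the light chains Myl3 (-1.04, adjusted p = 0.0259, edgeR) and Myl2 (-0.95, adjusted p = 0.0457, edgeR) and the calcium store protein Casq2 (-0.52, adjusted p = 0.0454, edgeR). Summed, the 10 slow genes stood at 953 CPM in adult sham replicate 1, within the 852 to 992 CPM of adult burn. Adult sham replicates 2 and 3 were at 1958 and 2171 CPM. Of 11 thick filament partners, Myom3 (-1.10, adjusted p = 0.0129, edgeR) and Mybpc1 (-1.08, adjusted p = 0.0186, edgeR) were called lower and the list median was 0.00. Of 22 regulators of fibre type, the nuclear receptor Esrrg was called lower (-1.39, adjusted p = 0.0179, edgeR). Of 8 genes of myosin folding and turnover, the ubiquitin ligase Trim63, known to act on myosin, was called higher (1.15, adjusted p = 0.0259, edgeR).

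Trim63 stood at 248, 346 and 390 CPM in adult sham and at 638, 941 and 603 CPM in adult burn. In young sham it stood at 291, 153 and 195 CPM, and in young burn at 173, 507 and 225 CPM. All adult burn libraries exceeded the other 9, and young burn replicate 2 was the highest of the young libraries. Of 9 fast fibre genes tested none was called in this comparison by edgeR, at a list median of 0.14. With all 12 libraries none of the 67 genes was called by edgeR. In that fit 16 had an unadjusted p under 0.05, as did 853 of all 12408 genes. DESeq2 called 1 of the 67 (0.0887% of all genes).

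In young mice none of the 67 genes was called after burn by edgeR, with 11 or 12 libraries. Before adjustment 14 and 17 of them had p below 0.05 in edgeR, as did 2026 of 12651 and 2519 of 12408 genes. DESeq2 called 2 and 9 of the 67, where 1.52% and 3.48% of all genes were called. The slow fibre genes had a median of 0.20 with 11 libraries and -0.19 with 12, so their direction rested on young burn replicate 2. The fast fibre genes had medians of -0.42 and -0.54.

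The interaction term was called for Myom3 (1.49, adjusted p = 0.0475, edgeR) and Casq2 (0.99, adjusted p = 0.0341, edgeR), 2 of the 67 genes, where 0.0949% of all genes were called. With all 12 libraries none of the 67 was called by edgeR or DESeq2, and 13 and 14 had an unadjusted p under 0.05. In edgeR 893 of all 12408 genes did. Mybpc1 had a term of 1.46 (adjusted p = 0.0871, edgeR).

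Between burned groups, 16 of the 67 genes were called higher in young mice and 7 lower. Of all 12651 genes tested, 1416 (11.2%) were called higher and 1207 lower. Of 10 slow fibre genes 5 were higher, led by Casq2 (1.40), Tnnt1 (1.37) and Myoz2 (1.23), and the list median was 1.16. Of 7 other myosin heavy chains tested, 3 were higher, and these were the embryonic Myh3 (1.91), the perinatal Myh8 (1.56) and the nonmuscle Myh10 (0.55). Myh3 and Myh8 are scarce, with 8 to 52 and 5 to 25 counts in a library. Of 11 thick filament partners 4 were higher, with Mybph (1.27), Myom3 (1.11) and Mybpc1 (1.10) leading. The fibre type regulators Prox1 (1.16) and Vgll2 (0.69) were higher, and Mef2d (-0.46) and Tbx15 (-0.43) lower. The fast fibre genes Casq1 (0.62) and Mylpf (0.61) were higher and Atp2a1 (-0.70) lower. Trim63 (-1.86), Trim54 (-1.01) and the myosin chaperone Unc45b (-0.43) were lower. Over 12 libraries 9 of the 67 were called, where 10.8% of all genes were.

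Between sham groups, 7 of the 67 genes were called higher in young mice and 7 lower. Of all 12651 genes tested, 667 were called higher and 821 (6.49%) lower. Of 9 fast fibre genes tested 4 were higher and 1 was lower. The light chain Mylpf (1.23), the light chain Myl1 (0.90) and the calcium store protein Casq1 (0.88) had the largest differences upward among them, and the calcium pump Atp2a1 (-0.43) was lower. Mybph (2.02) and Obsl1 (0.92) were higher among the thick filament partners and Mylk4 (-0.90) was lower. The other calls were Casq2 (0.42), higher, and Myh14 (-0.92), Esrrg (-0.84), Trim54 (-0.77), Myh11 (-0.63) and Mef2d (-0.57), lower. Tnnc2, the fast troponin C, had 0 to 6 counts in a library and was not tested. The fast troponin genes Tnnt3 and Tnni2 had 96170 to 155196 and 49039 to 86862 counts. Why so few reads were counted for Tnnc2 was not tested. Over 12 libraries 7 of the 67 were called, where 3.76% of all genes were.

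Myh7 moved with the slow fibre genes from mouse to mouse. The 10 slow genes summed to 953, 1958 and 2171 CPM in adult sham, to 992, 951 and 852 CPM in adult burn, to 1535, 2065 and 1260 CPM in young sham and to 2011, 698 and 1644 CPM in young burn. The mouse with the most Myh7 also had the highest slow sum in 4 of 4 groups, and the mouse with the least had the lowest sum in 3 of 4. In adult sham replicate 1, where Myh7 was the lowest of its group, the summed adipocyte markers (6 genes) were at 317 CPM, the highest level beside 316 CPM in adult burn replicate 1, and their part in the result was not tested.

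The microRNA mir-208b lies in intron 31 of 40 of Myh7 (chr14:54975700-54975776, minus strand), and mir-499 in intron 19 of 41 of the related gene Myh7b (chr2:155622880-155622958, plus strand). Their mature sequences from RefSeq are shown with the seed, bases 2 to 8, in capitals.

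miR-208b-3p: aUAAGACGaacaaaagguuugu
miR-499-5p: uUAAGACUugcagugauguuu

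The small RNA libraries held 1704531 to 3149396 counts, and mir-208b had 10 to 51 of them. It stood at 4.42, 13.4 and 20.4 CPM in adult sham, 7.20, 9.06 and 10.9 in adult burn, 5.32, 13.4 and 5.01 in young sham and 13.4, 5.87 and 9.44 in young burn. The mouse with the most Myh7 had the most mir-208b in 3 of 4 groups, taking libraries with the same title number as the same mouse. All 4 group ranges of mir-208b overlapped, and mir-499 stood at 54.1 to 234 CPM.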

How the data were processed

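Poly-A RNA and small RNA of 12 mice were sequenced as paired 75-base reads. Per the labels and the study's methods, the authors aligned mRNA reads to GRCm38 with STAR (2.7.5c in the submitters' processing notes) and deposited raw read counts per gene on the Gencode M25 annotation. Small RNA counts came from featureCounts (2.0.1). Gene counts were made with the GeneCounts option of STAR, per the study's methods. No source used here gives the strand setting, or the multimapping setting of the small RNA counts. Exon lengths and positions came from Gencode M21. Groups came from the sample titles. The members and gene lists were chosen with earlier results of these data known.

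Counts were tested with edgeR (version 4.0.16): TMM scaling, a filterByExpr cutoff of 10 counts (15 in total), and 1 mean per group over 11 libraries, leaving out young burn replicate 2. The study states an exclusion for its heat map, which shows young burn replicates 1 and 3, and names no replicate. Log2 CPM for correlations used a prior count of 2, with genes at a mean of at least 10 CPM. The members stay named throughout. Of each list, called genes with the largest changes are named, at most 3 per direction; 1 result that the rule names is not reported here. For each member the 5 closest protein-coding genes are named. Alternatives were all 12 libraries, DESeq2 (version 1.42.0), other scalings, no filter, a replicate block, the compared groups alone and each library left out. The fit was tested on simulated data. Replicates are separate mice, so p-values measure spread between mice. Same-numbered mice were not paired.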

Additional observations from a re-analysis of the deposited data

Results flagged for a closer look

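Results in which burn moved young and adult mice differently, by the interaction term of edgeR's quasi-likelihood test on 11 libraries, were Myh1 at 1.72 on the log2 scale (adjusted p = 0.00641), Myh2 at 2.16 (adjusted p = 0.0127), Myom3 at 1.49 (adjusted p = 0.0475) and Casq2 at 0.99 (adjusted p = 0.0341). Myh1 and Myh2 were lower in adult burn than in adult sham in 3 of 3 mice each. In young mice they were higher in the 2 burn libraries tested. Young burn replicate 2 did not follow, and none of the 4 terms was called by edgeR with it included. Groups of 3 mice were too small for a check of single outlying values. The study, from the same mice, already named Myh1, Myh2, Myom3 and Mybpc1 as falling with burn in adults only. These calls are therefore not independent of its result.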

How the results depend on the processing

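Myh4, Myh1 and Myh2 had over 1000 counts in every library and Myh7 had 68 to 540. The replicate block treats same-numbered mice as pairs, which no label states and for which the correlations of same-numbered mice ran from -0.20 to 0.15. With the block and 11 libraries 2 members were called between sham groups (Myh2 at adjusted p = 0.0338, edgeR), and 4 other genes of the pathway after adult burn and 0 for the interaction. With the block and all 12 libraries the members called were 0 between sham groups, 1 after adult burn and 0 for the interaction, and the other genes called were 6, 0 and 0, with 7 between burned groups.

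With all 12 libraries in edgeR, the members called were 0 between sham groups, 0 after adult burn and 0 for the interaction. Of the other genes 7, 0 and 0 were called, and 9 between burned groups. Of all genes 3.76%, 0.00806% and 0% were called, and 10.8% between burned groups. DESeq2 with 11 libraries called 2 members between sham groups and 1 after young burn, and 2 other genes after young burn and 6 for the interaction. After young burn 1.52% of all genes were called, and the shares between sham groups and for the interaction are not given here. DESeq2 with all 12 called 0 members between sham groups, 1 after young burn and 1 for the interaction. In the same order 5.38%, 3.48% and 0.00806% of all genes were called. DESeq2 with all 12 called 1 other gene after adult burn, 9 after young burn, 15 between burned groups and 0 for the interaction. The share of all genes was 0.0887% after adult burn, and that between burned groups is not given here.

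Scaling by library size alone called 2 members between sham groups and 1 after young burn, and 4 other genes after young burn. Of all 12651 genes 1789 were called between sham groups and 353 after young burn. This scaling moved the median of all genes by -0.13 between sham groups, 0.16 after young burn and 0.18 for the interaction. The share of all calls that were higher went from 44.8% to 19.7% between sham groups, from 69.0% to 95.8% after young burn and from 83.3% to 100% for the interaction. TMM without the 20 most abundant genes called 1 other gene for the interaction, where 8 of all 12651 genes were called. With no filter on low counts edgeR gave infinite prior degrees of freedom (8.17 with the filter), so every gene shared 1 spread and its p-values do not reflect each gene's own replicates. It called 4 members between sham groups, 3 after young burn, 4 between burned groups and 4 for the interaction, and 22, 18 (adult burn), 13, 35 and 20 other genes. For this fit, the replicate block and the fits with a library left out, the share of all genes called is not given here. Their counts of members and other genes therefore have no background to be read against.

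With each of the 11 libraries left out in turn, the members called ranged from 0 to 2 between sham groups, 0 to 1 after young burn and 1 to 3 for the interaction. The other genes called ranged from 0 to 8 after adult burn, 0 to 3 after young burn, 11 to 26 between burned groups and 0 to 3 for the interaction. Myh4 after adult burn, never called there, ranged from -0.057 without adult burn replicate 2 to 0.20 without adult burn replicate 1. Myh7 after young burn, never called there, turned from 0.21 to -0.22 with all 12 libraries, -0.21 with DESeq2 on 12, -0.23 with the replicate block on 12 and -0.010 without young burn replicate 1, and was at most 0.48, without young sham replicate 2. Division by exon length moved the share of Myh2 in adult sham to 2.25%, that of Myh4 there to 94.4% and that of Myh7 in adult burn to 0.0777%. In groups of 3 libraries the other shares, and with scaling by library size the levels of mir-208b and mir-499, moved by less than 1 SD. In young burn without replicate 2 (n = 2), division by length moved the shares by more than 1 SD for Myh2 (2.99% to 2.54%), Myh4 (93.0% to 93.6%) and Myh7 (0.199% to 0.140%), and scaling by library size did so for mir-499 (97.8 to 116 CPM). The causes were not tested.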
